A study of Mus musculus with 2 samples.

Results

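Chemokines are small secreted proteins that guide leukocytes, and their receptors are G protein-coupled receptors of the cell surface. The genes described here were all those on the array with a symbol of the form Ccl, Cxcl, Cx3cl, Xcl, Ccr, Cxcr, Cx3cr or Xcr followed by a number. That gave 57 genes of the 23602 named genes on the array, 37 of ligands and 20 of receptors, measured by 69 probes. For 10 genes with several probes the brightest was used, and the other 47 genes had 1 probe. Of the 57 genes, 26 (45.6%) were well above background on at least 1 array, against 15419 (65.3%) of all named genes. By class, 22 of 37 ligand genes (59.5%) and 4 of 20 receptor genes (20%) were detected in this way.

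RNA came from mouse primary hepatocytes, the parenchymal cells of the liver taken into culture. Cells of both groups were plated in 24-well plates and kept with 10% serum. They took up 50 pmol of siRNA by lipid transfection and were measured 24 hours later. One group was given control siRNA and the other G0s2 siRNA, which targets the gene of an inhibitor of adipose triglyceride lipase. Each group is represented by 1 single-colour Cy3 array made from 0.5 ug of total RNA, so every difference below compares 2 arrays, not conditions, and none has a replicate check. The labels do not state the strain, sex or age of the mice, nor the sequence of either siRNA.

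A level below is the log2 processed signal of a probe minus the 75th percentile of its array, and a difference is the level with G0s2 siRNA minus the level with control siRNA. The error after ± is the scanner's own signal error carried to the difference, with a median of 0.20 over genes detected on both arrays. Differences among cultures, extracts and labellings are not part of it. The target itself, G0s2, had a level of -0.13 with control siRNA and -2.83 with G0s2 siRNA. Its difference was -2.70 ± 0.21, or 6.50-fold lower.

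All 7 hepatocyte markers were well above background on both arrays. Their summed signal, in multiples of the 75th percentile, was 989 with control siRNA and 1140 with G0s2 siRNA. Most of each sum came from Alb and Serpina1a, which differed by 0.30 and 0.08. Cps1, a urea cycle enzyme gene, was higher by 2.96 and Hnf4a, a hepatocyte transcription factor gene, by 1.04. Ttr, at -0.16, was the only lower one. Markers of other liver cells were present as well. Of 8 macrophage and Kupffer cell markers 7 were detected, with summed signals of 6.52 and 9.43. Cd14 was higher by 1.097, Csf1r and Clec4f were lower, at -0.50 and -0.33, and the other detected ones were higher. The scavenger receptor gene Cd163 was not detected. Of 8 endothelial markers 7 were detected, with sums of 9.80 and 7.55, and Tek was not. Their median difference was 0.77, with Cdh5 higher by 1.01, while Kdr and Stab2 were lower, at -0.51 and -0.18. Most of each sum came from Kdr, at levels of 3.13 and 2.62. Of 6 T and NK cell markers on the array 3 were detected, with sums of 5.24 and 5.68, while Cd3g, Cd8a and Klrb1c were not. Cd3e differed by -1.01, Cd4 by 0.67 and Nkg7 by -0.08. Each of the hepatocyte, macrophage and Kupffer, endothelial, and T and NK cell lists held both higher and lower members, unlike the cholangiocyte list below. Of 5 neutrophil markers 2 were detected, with sums of 37.9 and 43.8, while S100a8, S100a9 and Mpo were not. Nearly all of that sum came from Csf3r, at levels of 5.22 and 5.43, with Elane at -0.70 and -0.64. Of 4 B cell markers 2 were detected, each on 1 array only, with sums of 0.0580 and 0.0488, while Ms4a1 was not. Stellate markers (2 of 6 detected, without Des, Lrat, Pdgfrb and Reln) summed to 0.163 and 0.177. Cholangiocyte markers (4 of 5, without Epcam) summed to 6.93 and 3.98, with Krt19 at -1.13, and all 4 were lower. In bulk RNA, fewer cells of a type and less RNA per cell cannot be told apart. The part of these cells in the chemokine values was not tested.

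Chemokines are named for the spacing of their first cysteines, as CC, CXC, CX3C and XC. They bind glycosaminoglycans on cell surfaces and signal through receptors that couple to inhibitory G proteins, and atypical receptors take them up without that signal. Many are induced by interferons and by NF-kB. In the liver, hepatocytes, Kupffer cells, endothelial cells and stellate cells can all produce chemokines that draw monocytes, neutrophils and T cells into injured tissue.

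The promoters of 5 detected genes are shown because they belong to genes past 2-fold in either direction (Cxcl9, Cxcl10, Cxcl13 and Cxcr7) or to Cxcl1, the detected neutrophil chemokine that stayed within it. Each run is the 250 bases before the annotated RefSeq start on GRCm38.p6, 5′ to 3′ on the strand of the gene, with capitals on every motif match. Cxcl9 spans chr5:92328080-92328329 on the minus strand and Cxcl10 spans chr5:92348890-92349139 on the minus strand. Cxcl13 spans chr5:95956689-95956938, Cxcl1 spans chr5:90890995-90891244 and Cxcr7 (current symbol Ackr3) spans chr1:90203730-90203979, all on the plus strand.
Cxcl9: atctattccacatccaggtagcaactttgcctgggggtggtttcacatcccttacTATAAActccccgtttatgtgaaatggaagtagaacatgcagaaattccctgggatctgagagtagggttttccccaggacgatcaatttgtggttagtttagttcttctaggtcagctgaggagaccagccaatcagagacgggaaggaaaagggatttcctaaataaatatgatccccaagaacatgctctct
Cxcl10: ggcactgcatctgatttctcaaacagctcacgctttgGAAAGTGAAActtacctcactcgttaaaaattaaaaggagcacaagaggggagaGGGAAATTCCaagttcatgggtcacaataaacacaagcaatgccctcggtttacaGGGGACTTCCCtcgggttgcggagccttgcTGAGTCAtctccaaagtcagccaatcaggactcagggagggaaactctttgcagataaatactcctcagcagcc
Cxcl13: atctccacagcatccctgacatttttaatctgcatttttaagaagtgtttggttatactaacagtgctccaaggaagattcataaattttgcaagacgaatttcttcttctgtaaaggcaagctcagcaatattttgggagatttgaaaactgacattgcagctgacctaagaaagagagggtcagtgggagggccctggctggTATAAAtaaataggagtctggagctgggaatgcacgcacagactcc
Cxcl1: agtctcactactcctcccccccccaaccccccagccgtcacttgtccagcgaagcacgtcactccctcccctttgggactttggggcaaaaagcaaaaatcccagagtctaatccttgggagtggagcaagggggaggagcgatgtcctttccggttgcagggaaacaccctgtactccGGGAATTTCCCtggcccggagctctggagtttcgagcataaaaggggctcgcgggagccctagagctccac
Cxcr7: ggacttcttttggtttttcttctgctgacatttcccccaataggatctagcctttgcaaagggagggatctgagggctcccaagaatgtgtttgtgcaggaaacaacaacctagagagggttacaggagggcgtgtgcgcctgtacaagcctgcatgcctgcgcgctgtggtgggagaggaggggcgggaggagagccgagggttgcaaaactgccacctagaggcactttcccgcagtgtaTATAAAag

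The motifs searched on both strands were the interferon-stimulated response element GAAANNGAAA, the gamma-activated site TTCNNNGAA, the NF-kB consensus, the AP-1 site TGANTCA and the TATA box TATAAA. They occurred in 2.98%, 7.02%, 7.25%, 6.75% and 12.4% of 32851 RefSeq windows of the same length. Cxcl10 held GAAANNGAAA at 213 to 204 bases before its start, matches to the NF-kB consensus at 159 to 150 and 104 to 94 bases, where matches overlap, and TGANTCA at 74 to 68 bases. The Cxcl1 window held overlapping NF-kB matches at 71 to 61 bases. Cxcl9 held TATAAA at 195 to 190 bases, Cxcl13 at 46 to 41 bases and Cxcr7 at 8 to 3 bases, and no other of these motifs was found in those 3 windows. Of 21 windows of 18 detected genes, 3 held GAAANNGAAA (Cxcl10, Ccl19 and Cxcl14), 3 the NF-kB consensus (Cxcl10, Cxcl1 and Ccl9), 3 the AP-1 site, 7 TATAAA and 1 TTCNNNGAA (Cxcl14). A match describes letters only.

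Ligand genes were either lower on the G0s2 siRNA array or within 2-fold of their control level, and 0 ligand genes were at least 2-fold higher. Of the 26 detected genes 8 (30.8%) were at least 2-fold lower, all ligands, namely Cxcl5, Cxcl13, Cxcl9, Ccl7, Cxcl10, Cxcl17, Cx3cl1 and Ccl4. Among all 15419 detected genes 5.46% were at least 2-fold lower. One gene (3.85%), that of the atypical receptor Cxcr7, was at least 2-fold higher, against 4.81% of all detected genes. The median difference was -0.13 over the 26 genes and -0.03 over all detected genes. Over the 22 ligand genes the median was -0.76, and over the 4 receptor genes it was 0.35. These medians include bounds, and genes without a fold, such as Cxcr4, enter as 0. Of the receptor genes only Cxcr7 and Ccr8 were measured on both arrays. Under normexp background correction they stood at 0.09 and -0.27, so the receptor median rests on few and dim values.

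**Figure D1:**
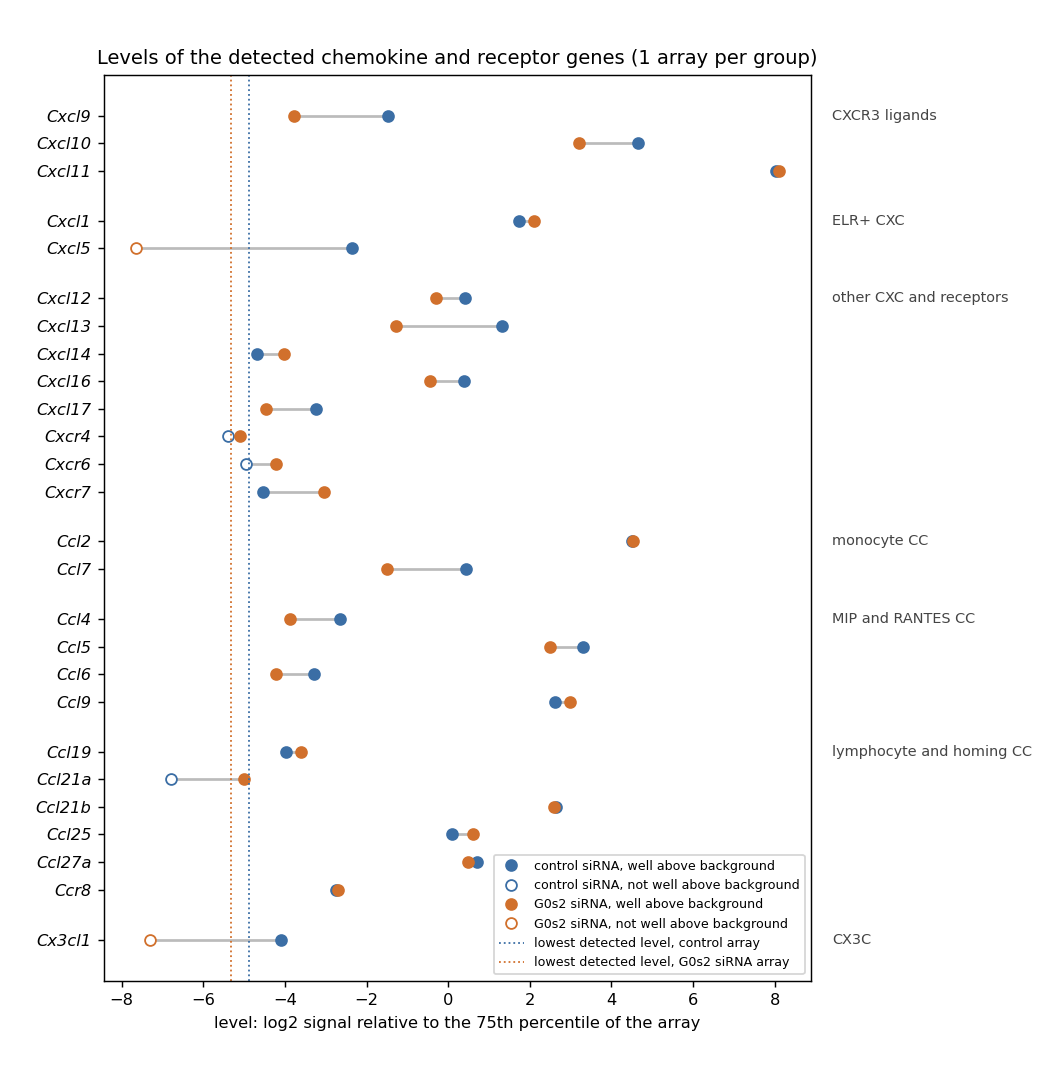
Levels of the 26 detected genes on the control array (blue) and the G0s2 siRNA array (orange), as log2 signal relative to the 75th percentile of the array, with genes grouped by role. Open circles were not well above background, and dotted lines mark the lowest detected level of each array, -4.87 and -5.33. Cxcl5 and Cx3cl1 have a filled point on the control array only.

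Counted another way, 21 of the 26 genes were well above background on both arrays, 2 on the control array only and 3 on the G0s2 siRNA array only. Over all 15419 detected genes these counts were 14120, 259 and 1040. Of the 21, 12 (57.1%) had a negative difference, against 55.1% of all genes detected on both arrays, a share near the background. Of these 21 genes, 6 were at least 2-fold lower, against 5.06% of all genes when only probes above background on both arrays were used. The median of the 21 was -0.22, against -0.06 for all genes detected on both arrays. Before any scaling the signal of 12 of these 21 genes was higher on the G0s2 siRNA array, whose 75th percentile was 728 against 418 on the control array. A lower level here is therefore relative to the rest of the array.

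**Figure D2:**
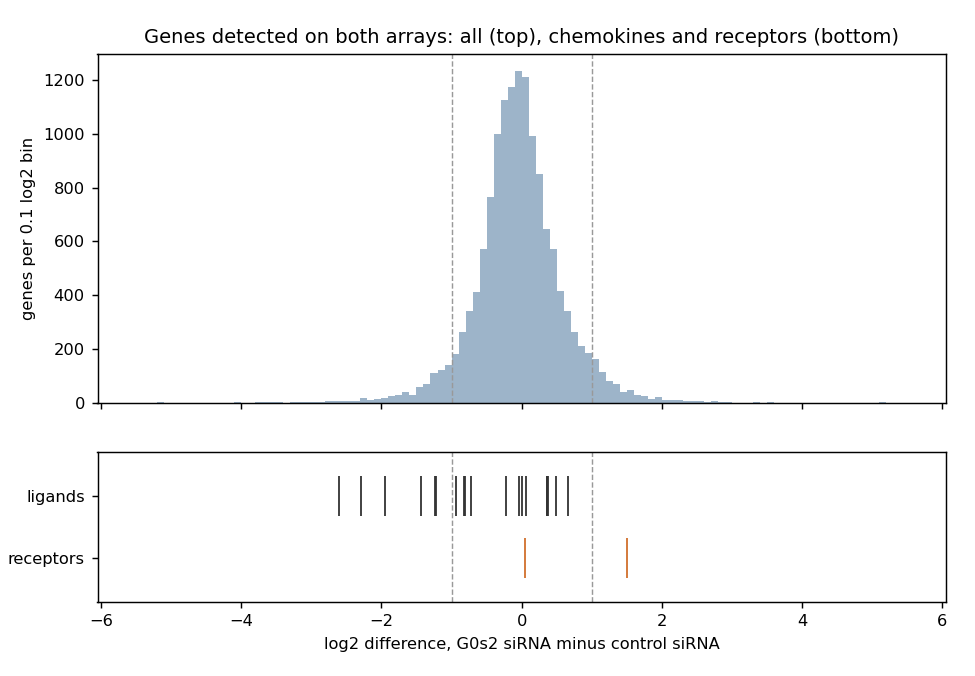
Log2 differences of the 14120 genes detected on both arrays, in bins of 0.1 (top), and of the 19 ligand and 2 receptor genes detected on both (bottom, 1 tick each). Dashed lines mark 2-fold, and 6 ligand ticks lie left of the lower line.

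The CXCR3 ligands Cxcl9, Cxcl10 and Cxcl11 are interferon-induced chemokines that attract activated T cells and NK cells. All 3 were detected on both arrays, 2 of them were at least 2-fold lower, and the receptor gene Cxcr3 was detected on neither. Cxcl9 had a signal of 151 with control siRNA and 53.5 with G0s2 siRNA, which are levels of -1.47 and -3.77. Its difference was -2.30 ± 0.23, or 4.91-fold lower, and its other probe gave -1.78 ± 0.31. Both Cxcl9 probes thus read lower by more than 3 times the scanner error. The brighter one lies at chr5:92752191-92752250 (mm9, minus strand).

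Cxcl10 had a signal of 10442 with control siRNA and 6711 with G0s2 siRNA, at levels of 4.64 and 3.21. Its difference was -1.44 ± 0.20, or 2.71-fold lower, read by 1 probe at chr5:92775781-92775840 (mm9, minus strand). Both genes had lower signal on the G0s2 siRNA array before scaling as well, although that array was the brighter of the pair. Under normexp background correction Cxcl9 was lower by a smaller amount, at -1.45.

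Cxcl11, which binds CXCR3 and the atypical receptor Cxcr7, was read by a pair of probes that showed no decrease. Its brighter probe had signals of 110372 and 200606, at levels of 8.04 and 8.11, with a difference of 0.06 ± 0.20. The other had signals of 880 and 1900, with a difference of 0.31 ± 0.20. The brighter probe shared at least 20 bases with the promoter windows of 22 entries and with probes of 5 other gene names, among them Elk1, F10, Med16 and Ndor1. Such sharing with at least 10 windows was found for 318 of 39429 probes (0.807%) and for 1 of the 69 chemokine and receptor probes. Bases 15 to 44 of that probe are shown, with capitals on a word of 20 bases found in 15 of the windows.
Cxcl11 probe: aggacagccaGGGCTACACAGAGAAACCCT
How much of that signal came from Cxcl11 transcripts was not tested, so its level is uncertain. The other probe shared 20 bases with 0 windows.

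The neutrophil chemokines carry a Glu-Leu-Arg motif before the first cysteine and act through Cxcr2 and, in part, Cxcr1. Of 5 ligand genes 2 were detected and differed in direction. Cxcl5 had a signal of 81.2 with control siRNA and 3.64 with G0s2 siRNA, where it was not well above background. Its levels were -2.36 and -7.64, and it was at least 7.82-fold lower, a bound set by the lowest detected signal of that array. Its probe lies at chr5:91190490-91190549 (mm9, plus strand). Under normexp the Cxcl5 bound was smaller, at -1.64.

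Cxcl1, an early neutrophil attractant, had signals of 1384 and 3132, at levels of 1.73 and 2.11. Its difference was 0.38 ± 0.20, or 1.30-fold, so it stayed within 2-fold on the side opposite to Cxcl5. Cxcl2, Cxcl3 and Cxcl15 were detected on neither array, nor were the receptor genes Cxcr1 and Cxcr2.

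The remaining CXC ligand genes, Cxcl12, Cxcl13, Cxcl14, Cxcl16 and Cxcl17, were all detected on both arrays, and 2 of the 5 were at least 2-fold lower. Cxcl13, which attracts B cells to lymphoid follicles through Cxcr5, had a signal of 1051 with control siRNA and 299.5 with G0s2 siRNA. Its levels were 1.33 and -1.28, and its difference was -2.61 ± 0.21, or 6.10-fold lower. Its signal stood well above background on both arrays, so this is a measured difference and not a bound. The probe lies at chr5:96389861-96389920 (mm9, plus strand).

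Cxcl17, a chemokine of mucosal surfaces, had signals of 44.3 and 32.8 and levels of -3.24 and -4.47. Its difference was -1.23 ± 0.28, or 2.35-fold lower, and under normexp it was -0.70. The lowest detected signals of the arrays were 14.3 and 18.1.

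Cxcl12, a homeostatic chemokine that retains haematopoietic cells through Cxcr4, had levels of 0.42 and -0.30. Its difference was -0.72 ± 0.20, and a second probe gave -0.71 ± 0.31. Both Cxcl12 probes placed it below its control level but within 2-fold. Cxcl16, a membrane-anchored ligand of Cxcr6, had levels of 0.38 and -0.43 and differed by -0.82 ± 0.20. Cxcl14, an epithelial chemokine, had levels of -4.68 and -4.01 and differed by 0.66 ± 0.36, which became -0.24 under normexp. Its direction therefore depended on the background correction.

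Among the receptor genes Cxcr4, Cxcr5, Cxcr6 and Cxcr7, only Cxcr7 was detected on both arrays. Cxcr7 encodes a receptor that takes up Cxcl12 and Cxcl11 without G protein signalling. Its signal was 18.1 with control siRNA and 88.9 with G0s2 siRNA, at levels of -4.53 and -3.03. The difference was 1.497 ± 0.33, or 2.82-fold higher, and it was 0.09 under normexp. Its control signal was close to 14.3, the lowest detected on that array. The probe lies at chr1:92111803-92111862 (mm9, plus strand).

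Cxcr6, the receptor of Cxcl16 on T and NK cells, was detected only with G0s2 siRNA. Its signals were 13.6 and 39.3, at least 1.58-fold higher, and under normexp it had no fold. The other Cxcr6 probe, with signals of 3.42 and 11.4, was detected on neither array. Cxcr4, detected only with G0s2 siRNA at signals of 9.90 and 21.3, had no fold because the bound did not reach past 0. Cxcr5 was detected on neither array. Of all 15419 detected genes, 1040 were detected on the G0s2 siRNA array only and 259 on the control array only. Detection on the G0s2 siRNA array only was thus the more frequent.

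**Figure D3:**
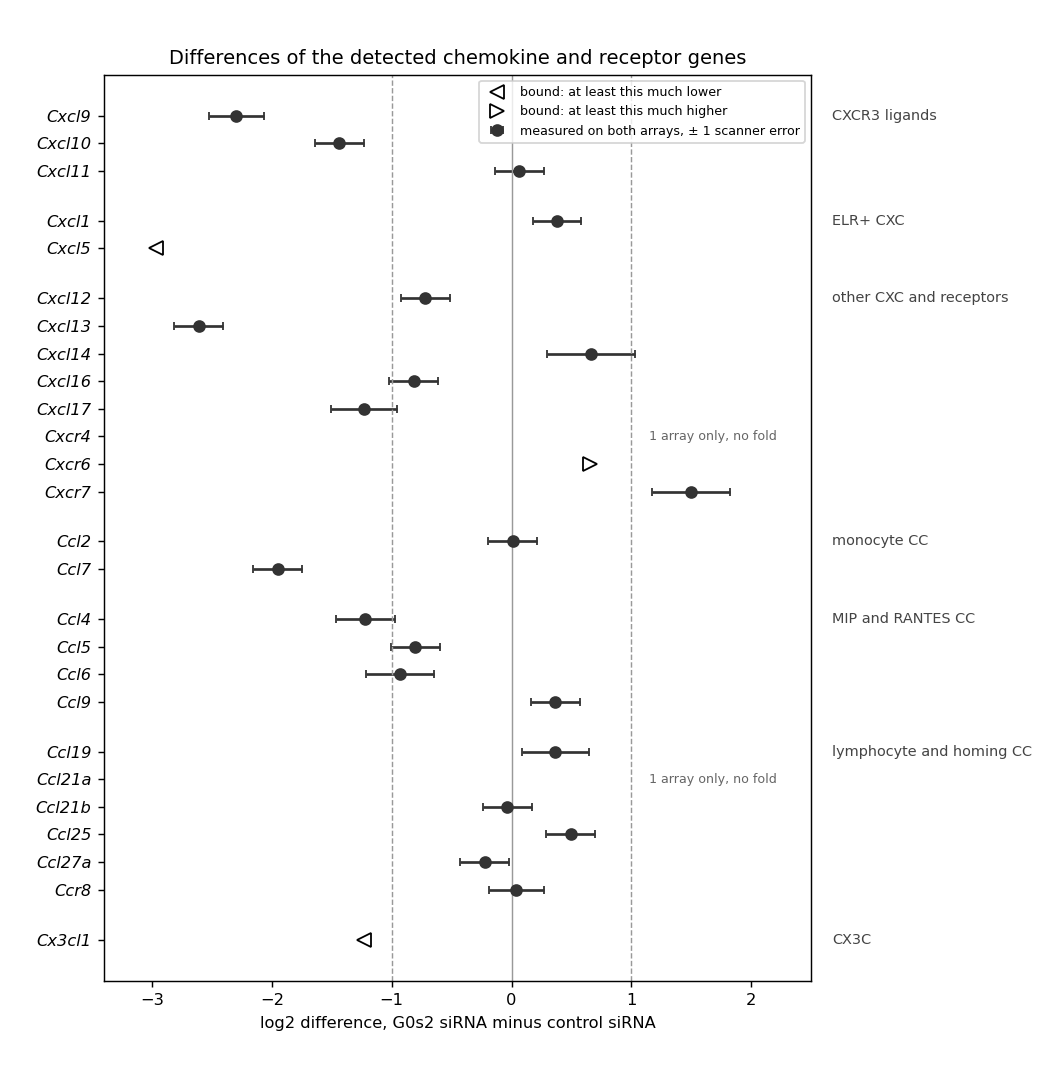
Differences of the 26 detected genes on the log2 scale, grouped by role. Points are measured on both arrays with 1 scanner error either side, triangles are bounds, and dashed lines mark 2-fold. Cxcr7 lies right of the upper line, and 8 ligand genes lie left of the lower one.

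The CC chemokines of the monocyte type share the receptor gene Ccr2 or Ccr3. Of 7 ligand genes 2 were detected, and their differences were unlike each other although the genes are neighbours on chromosome 11. Ccl2, the main monocyte attractant, was spotted 10 times per array, with signals of 8999.7 to 9897 with control siRNA and 16132 to 17760 with G0s2 siRNA. The 2 sets of spots did not overlap before scaling, and after it their levels were 4.52 and 4.53. Its difference was 0.01, with an SD over the spots of 0.06.

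Ccl7, a monocyte attractant that also binds Ccr1 and Ccr3, had a signal of 569 with control siRNA and 256 with G0s2 siRNA. Its levels were 0.44 and -1.51, and its difference was -1.95 ± 0.21, or 3.87-fold lower. The probe lies at chr11:81860656-81860715 (mm9, plus strand). Ccl7 was thus lower on the array where the signal of Ccl2 was higher before scaling and level with the control after it. Ccl8, Ccl11, Ccl12, Ccl24 and Ccl26 were detected on neither array, nor were Ccr2 and Ccr3.

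The MIP and RANTES type ligands attract monocytes and T cells, and 4 of 5 were detected on both arrays. Ccl4, a T cell and monocyte attractant, had signals of 66.4 and 49.6 and levels of -2.65 and -3.88. Its difference was -1.22 ± 0.24, or 2.33-fold lower, and was -0.98 under normexp. Ccl5, which attracts T cells and monocytes, had signals of 4149 and 4133 and levels of 3.31 and 2.51. Equal signals on arrays of unequal brightness gave Ccl5 a difference of -0.80 ± 0.20. Ccl6 had levels of -3.28 and -4.22 and differed by -0.93 ± 0.29, just inside 2-fold, and loess normalization put it past that line, at -1.08. Ccl9, like Ccl6 a ligand of Ccr1 in the mouse, went the other way. Its levels were 2.62 and 2.99, and its difference was 0.37 ± 0.20. Ccl3, Ccr1 and Ccr1l1 were detected on neither array.

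Of the 16 lymphocyte and homing genes 6 were detected, and 0 of these 6 were at least 2-fold different by a measured value or a bound. Ccl27a, a skin-homing ligand of Ccr10, had levels of 0.72 and 0.49 and differed by -0.22 ± 0.20, with -0.29 and -0.69 from its other probes. Ccl25, the gut-homing ligand of Ccr9, had levels of 0.10 and 0.60 and differed by 0.50 ± 0.20, with 0.40 from its other probe. Ccl19, a ligand of Ccr7, had levels of -3.97 and -3.60 and differed by 0.37 ± 0.28, which turned to -0.28 under normexp. Another Ccl19 probe was detected with G0s2 siRNA only, with a bound of 0.58, and the last on neither array. The several probes of Ccl27a and of Ccl25 gave the same direction.

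Ccl21b, another ligand of Ccr7, had levels of 2.63 and 2.60 and differed by -0.03 ± 0.20. Its near-identical copy Ccl21a was detected only with G0s2 siRNA, at signals of 3.75 and 22.7, and had no fold. The probes of these copies share at least 20 bases, so their separate values are uncertain. Ccr8, through which T cells respond to Ccl1, was the only one of 6 receptor genes of this group detected, at levels of -2.75 and -2.70, and differed by 0.04 ± 0.23. Its other probe was detected on neither array. Under normexp the Ccr8 difference was -0.27. Ccl1, Ccl17, Ccl20, Ccl22, Ccl28, Ccr4, Ccr6, Ccr7, Ccr9 and Ccr10 were detected on neither array.

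Cx3cl1, or fractalkine, is anchored in the membrane and binds Cx3cr1 on monocytes. It was detected on the control array only, with a signal of 24.3 there and 4.60 on the G0s2 siRNA array, at levels of -4.10 and -7.30. It was at least 2.34-fold lower, or -1.23 on the log2 scale, and under normexp the bound was -0.87. Cx3cr1, Xcl1 and Xcr1 were detected on neither array.

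Few of the detected ligands had a receptor gene detected on these arrays. Cxcr3, Cxcr2, Cxcr5, Ccr1, Ccr2, Ccr3, Ccr7, Ccr9, Ccr10 and Cx3cr1 were below detection while at least 1 of their ligands was measured. Cxcr4, which binds Cxcl12, and Cxcr6, which binds Cxcl16, reached detection on the G0s2 siRNA array only. Cxcr7, which takes up Cxcl12 and Cxcl11, was detected on both arrays. Over all 31 genes detected on neither array, signals lay between 2.93 and 19.6.

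Genes related to chemokines but outside the naming rule were counted in 4 lists by the same 2-fold rule, which 4.81% of all detected genes passed in the higher and 5.46% in the lower direction. Of 16 atypical receptor and chemokine-like genes 10 were detected, 0 were higher by the 2-fold rule and 1 was lower, with a median of -0.34. That 1 was Cklf, a chemokine-like factor gene, at levels of 0.59 and -0.51 and a difference of -1.09 ± 0.20. Ackr1, Ackr4, Pf4, Ppbp, Cmklr1 and Gpr1 were not detected. Of 21 genes of receptor signalling 18 were detected, 0 were higher by the rule and 2 were lower, with a median of -0.31. Gnai1, an inhibitory G protein subunit gene, was at least 3.57-fold lower and detected on the control array only. Grk5, a receptor kinase gene, had levels of -0.23 and -1.496 and differed by -1.26 ± 0.21.

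Of 11 genes of chemokine processing and presentation 9 were detected, 1 was higher by the rule and 0 were lower, with a median of 0.11. The higher one was Hs6st1, a heparan sulfate sulfotransferase gene, at levels of -0.35 and 0.67 and a difference of 1.02 ± 0.20. Of 19 cytokine and transcription factor genes that induce chemokines 13 were detected, 0 were higher by the rule and 2 were lower, with a median of -0.11. Stat2, which transmits the type I interferon signal, had levels of 3.66 and 2.56 and differed by -1.10 ± 0.20. Ifnb1, the interferon beta gene, had levels of -3.94 and -4.97 and differed by -1.04 ± 0.34. The lowest detected levels of the arrays were -4.87 and -5.33, so Ifnb1 was dim on both. Among the rest, Irf1 differed by -0.57 ± 0.20, while the NF-kB inhibitor gene Nfkbia differed by 0.71 ± 0.20. Tnf, Il1a, Il1b, Il6, Ifng and Rel were detected on neither array.

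All directions above hold relative to the array's 75th percentile, and spike-in controls gave another scale. Centred on 8 spike-in probes, whose log2 differences before scaling ran from -0.98 to -0.04, the median of all genes moved from -0.03 to 1.34. Then 14 of the 26 genes were at least 2-fold higher, while 77.2% of all 15419 detected genes were. The 2 genes at least 2-fold lower were Cxcl5 and Cxcl13, against 0.305% of all detected genes. Of all calls, 99.6% were in the higher direction. Relative to the median of all genes on that scale, Cxcl9 stood at -2.24, Ccl7 at -1.89 and Cxcl10 at -1.38. Cxcl10 itself was at -0.04 on the spike-in scale, Cxcl17 at 0.17 and Ccl4 at 0.18, and 6 other genes below 0 on the main scale were also above 0 there. No source used here states whether equal amounts of spike-in were added, so that scale is not settled.

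**Figure D4:**
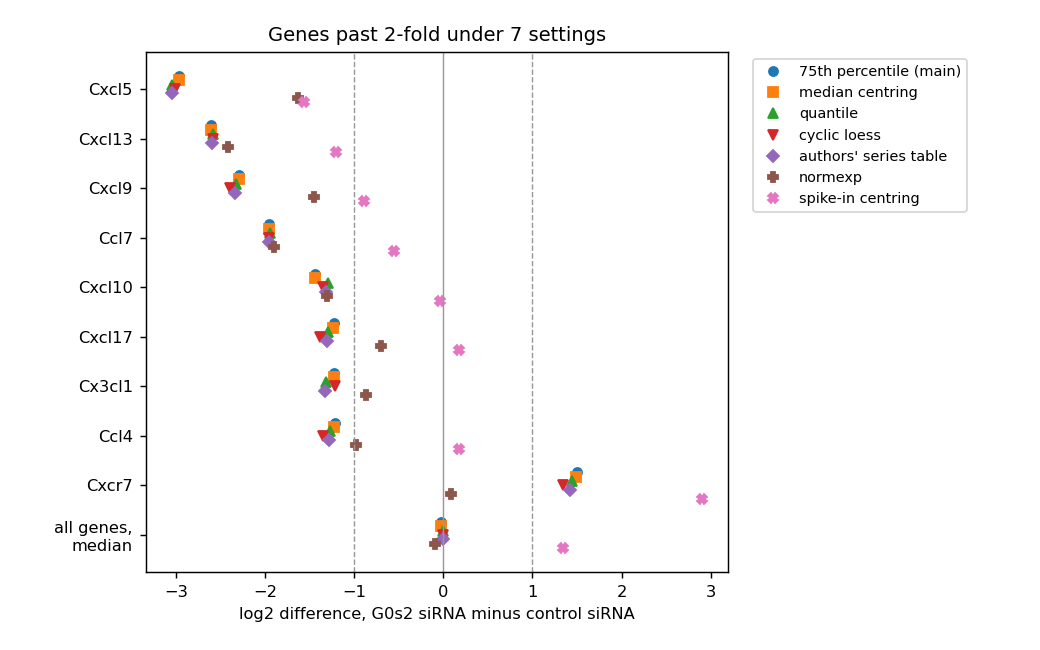
Log2 differences of the 9 genes at least 2-fold different, and the median of all detected genes, under 7 ways of scaling or background correction. Cxcl5 and Cxcl13 lie left of the lower 2-fold line under all 7, while the spike-in points lie to the right of the others together with the median of all genes, at 1.34. Cx3cl1 had no fold on the spike-in scale and has no point there.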

How the data were processed

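Total RNA of mouse primary hepatocytes was measured on 2 single-colour Agilent arrays, 1 per siRNA group, each assigned from its sample label. The authors read the arrays with Agilent Feature Extraction 10.7.1.1, per the file headers. The deposited tables give each spot's processed signal, a linear intensity with background already corrected by the scanner program. Both arrays shared a slide and a scan start. The authors' deposited series table, with intensity values of equal median (33.1) in both columns, entered only as an alternative.

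Control spots and outlier-flagged spots were dropped and the spots of a probe averaged. Each array was scaled to the 75th percentile of its processed signal, and log2 was taken. Of 39424 probes kept, 26408 were named by accession, 3854 by symbol and 734 by synonym through a RefSeq gene table of GRCm38.p6. The 8428 others had no current symbol. Probe positions on mm9 come from the deposited tables, and exon and UTR annotation was not used here. A gene's value came from its brightest detected probe, detected meaning well above background by the scanner's own flag on 1 array or more. For a gene dim on either array, the lowest signal detected there (or the probe's own, if higher) stood in for it, which gives a bound. Counts used a 2-fold rule. No test was possible with 1 array in each group, and the number of arrays limits the precision.

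The genes and the related lists were chosen with earlier results of these data known. Genes of the symbol rule were reported by name, apart from an item not reported here that the counts include, and genes of related lists were named where at least 2-fold different, plus Irf1 and Nfkbia, chosen after their values were seen. Promoters came from a RefSeq table on GRCm38.p6, which held 42 of the 57 genes, and the 5 printed were chosen after the values were seen. Calculations used Python 3.11.15 with numpy 2.4.6 and pandas 2.3.3, R 4.3.3 with limma 3.58.1, and matplotlib 3.10.9. Differences and bounds were tested on simulated data. Alternatives were normexp (offset 50), median or spike-in centring, quantile and loess normalization, looser and stricter filters on dim probes, a gene's mean over its probes, flagged or saturated spots, the authors' values, and rules of 1.5-fold, 3-fold and 2 scanner errors.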

Additional observations from a re-analysis of the deposited data

How the results depend on the processing

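With 1 array per group no replicate could be left out, and depth, here signal over background, limits the dim genes. No paired analysis was possible because each group has 1 array and no test was run. The counts of 1 gene higher and 8 lower were the same with median centring, quantile normalization, the mean over probes, flagged spots kept, saturated spots left out (0 spots were saturated) and the 2-error rule. Of all detected genes 4.81% were higher and 5.46% lower by the 2-fold rule on the main scale. Loess gave 1 and 9, against 4.62% and 5.77% of all genes, and the authors' values 1 and 9, against 4.66% and 5.67%. Restriction to genes above background on both arrays gave 1 and 6 of 21, against 4.61% and 5.06%. Normexp gave 0 higher and 5 lower, against 2.45% and 3.35% of all genes. Spike-in centring gave 14 and 2, against 77.2% and 0.305%, with a median of 1.18 against 1.34 for all genes. Without a filter on dim probes there were 4 higher and 11 lower of 57, against 6.45% and 6.16% of all 23602 genes. The median was then -0.37, against -0.15 for all genes. A 1.5-fold rule gave 3 higher and 12 lower, and a 3-fold rule 0 and 4, with no share over all genes taken for these rules. With spike-in centring 8 genes turned from below to above 0, namely Cxcl17 (0.17) and Ccl4 (0.18), which had been at least 2-fold lower, and Ccl6 (0.47), Cxcl16 (0.59), Ccl5 (0.60), Cxcl12 (0.68), Ccl27a (1.18) and Ccl21b (1.37). Cx3cl1 then had no fold, and 5 genes stayed below 0. Leaving out Cxcl11, an alternative chosen after seeing the data, kept 1 higher and 8 lower of 25 and moved the median from -0.13 to -0.22. Of 281 values for single genes and settings, 241 moved by no more than the gene's scanner error, or the median error where the value is a bound. In 38 the move was larger, and the other 2 are the sign changes of Cxcl17 and Ccl4.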

Other observations

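Genes next to the chemokine genes with the clearest differences were looked at after those values were seen, in the RefSeq gene order. Beside Cxcl9 and Cxcl10 on chromosome 5, Sdad1 differed by -0.14, Naaa, an acid amidase gene, by 0.39, the nucleoporin gene Nup54 by -0.94 and the lysosomal membrane gene Scarb2 by -0.04. Art3, which lies between the pair, was detected with G0s2 siRNA only, with a bound of 0.24. Beside Cxcl13, Cnot6l, a deadenylase subunit gene, differed by 0.02 and E330014E10Rik by -0.57. Beside Cxcl5, Rassf6 differed by 0.46, and beside Ccl4, Wfdc17 differed by -0.08. None of these neighbours was at least 2-fold different.

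Of 11 ligand genes on chromosome 5, 6 were detected and 4 were at least 2-fold lower, and of 12 on chromosome 11, 7 were detected and 2 were at least 2-fold lower. Over all detected genes the share at least 2-fold lower was 5.46%. Of the other neighbours, 6 were past 2-fold. The same rule was passed by 4.81% of all detected genes in the higher and 5.46% in the lower direction. No share over the neighbours was taken, so the 6 are named as single genes only. Fyco1, next to Cxcr6, differed by 1.59, and Mthfd2l, a mitochondrial folate enzyme gene near Cxcl1, by 1.05. Cers4, a ceramide synthase gene next to Ccl25, differed by -1.24, and Gm21953, next to Ccl21b, by -1.03. Near Cxcl12 the zinc finger gene Zfp637 differed by -1.10, and Zfp239, detected on the control array only, had a bound of -1.15.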
